A study of Mus musculus with 8 samples.

Results

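The mouse genome keeps many of its C2H2 zinc finger genes in tandem arrays, and the contacts made by these arrays were examined in B cells between activation and the first division. A 50 kb bin of the genome (GRCm38) counted as a clustered zinc finger bin when it held the starts of 2 or more protein-coding genes of an autosome (GENCODE vM21) whose symbol begins with Zfp and a digit. This gave 109 of the 385 autosomal Zfp genes, among 20807 autosomal protein-coding genes, in 52 of the 47340 autosomal bins used. The measurement was in situ Hi-C. Fixed chromatin was digested with MboI inside the nucleus, ends lying close together were ligated, and each sequenced read pair counts as 1 contact between a pair of places. There were 8 libraries, 2 biological replicates in each of 4 groups, and the number of mice behind a library is not given.

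All cells were splenic B cells of mice given as male and aged 6 to 12 weeks, isolated by negative selection, labelled with the division dye CellTrace Violet (CTV), cultured with 25 μg/ml lipopolysaccharide (LPS) and sorted as CD69+ cells with the highest CTV signal, that is, activated but undivided. The study's methods put all animals on a C57BL/6 Pep3b background. The groups 3 h, 10 h and 33 h imminent division are labelled as C57BL/6 mice. The group 33 h pre-S is labelled as C57BL/6 FUCCI mice, whose fluorescent reporters mark the phase of the cell cycle, and was sorted in addition as mAG- mKO2hi, before S phase. Mouse strain and sort gate differed together with the pre-S group, so that their effects and that of the cell cycle cannot be told apart. Hi-C counts contacts over many cells, so that contact in more cells and closer contact in each cell cannot be told apart either. With 2 libraries a group, the p-values below measure only the spread between these samples.

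Libraries held 88703088 to 218945191 read pairs, and between 24.9% and 29.1% of the autosomal pairs joined different chromosomes. The second imminent division library stood apart on the sex chromosomes, with 3.74% of read ends on X against 2.39% to 2.84% in the other 7 libraries and 0.0490% on Y against 0.0804% to 0.123%. Of the other 7, the pre-S libraries were highest on Y, at 0.117% and 0.123%, and the rest reached at most 0.0920%. All mice are given as male, and the reason for these shares was not tested. The second imminent division library is 1 of the 2 behind each imminent division value. All comparisons used autosomes, and values are given for each library or without each library in turn where a result rests on it. All 8 listed B cell marker genes lay in the active A compartment, but so did all 6 T cell and all 4 myeloid markers, so that this check does not tell the cell types apart.

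A C2H2 zinc finger is a short fold held together by a zinc ion, and a row of such fingers reads a DNA sequence. Many of the tandem Zfp genes encode KRAB zinc finger proteins, in which the KRAB domain recruits the co-repressor TRIM28 (KAP1) and, through it, the histone methyltransferase SETDB1, which places the repressive mark H3K9me3 that HP1 proteins bind. They are best known for silencing transposable elements. Their arrays grew by repeated local duplication, and in several cell types the arrays themselves carry H3K9me3 although they lie among active genes.

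The member genes hold a repeated piece of coding sequence, the linker between neighbouring fingers, which is shown because it recurs in these loci. The 3 most frequent forms in the member genes follow, read from GRCm38 on the coding strand, 5′ to 3′. Capitals mark the 15 bases of the linker, and the lower case bases are the codons most often found on either side.
linker form 1: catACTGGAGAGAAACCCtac
linker form 2: catACAGGAGAGAAACCTtac
linker form 3: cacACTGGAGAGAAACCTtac
A linker was counted only where the protein matched exactly the peptide that the 15 linker bases encode. Linkers with other amino acids were not counted. By this count the member genes held 629 linker copies in 147 distinct spellings. Counts here and below are of the 15 linker bases alone, whatever the codons on either side. Form 1 occurred 65 times, in 31 of the 109 genes, form 2 occurred 33 times in 11 genes and form 3 occurred 31 times in 22 genes. In the genome sequence itself, on either strand, form 1 lay in 36.5% of the member bins and in 0.376% of the 47288 other bins. Most copies lay elsewhere, since 19 member bins and 178 other bins held form 1, and 37 of its 984 copies were in member bins. The shares were 15.4% and 0.250% for form 2, and 30.8% and 0.385% for form 3.

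The encoded proteins were long rows of fingers. The member genes encoded a median of 12 fingers (interquartile range 10 to 14) and 6 exact matches to the linker. The 276 other autosomal Zfp genes had medians of 9 fingers and 2 exact matches. Zfp729b encoded the most fingers, 30, followed by Zfp646 with 29 and Zfp729a with 27. At the other end, Zfp935 encoded none that matched the finger motif, Zfp688 encoded 2, and Zfp446 and Zfp444 encoded 3 each. No exact match to the linker was found in 9 of the 109 member genes, against 92 of the 276 others, which may hold linkers of other sequence.

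The member bins formed 24 clusters on 12 autosomes when bins no more than 2 Mb apart were joined. Chromosome 7 held 20 member bins, chromosome 17 held 10 and chromosome 13 held 8. The 7 clusters with at least 3 bins or 8 genes are named below by their first and last gene. On chromosome 7 these were Zfp524-Zfp773 (chr7:5000082-7149989, 4 bins and 9 genes), Zfp112-Zfp94 (chr7:24099862-24349837, 4 bins and 8 genes), Zfp626-Zfp260 (chr7:27800156-30100042, 6 bins and 14 genes) and Zfp553-Zfp668 (chr7:127200134-127899852, 3 bins and 7 genes). The largest cluster, Zfp712-Zfp493 (chr13:67050063-67800183), had 7 bins and 15 genes. Chromosome 17 held Zfp51-Zfp13 (chr17:21450177-23600053, 5 bins and 10 genes) and Zfp811-Zfp101 (chr17:32800295-33400382, 4 bins and 8 genes). Of the other 17 clusters, 15 were single bins. All starts were on the same strand in 36 bins and on both strands in 16. The bin of Zfp324 and Zfp446 in the small cluster Zfp329-Zfp446 (chr7:12799944-13000065) also held the start of Trim28, the gene of the co-repressor named above.

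Despite their known link to a repressive mark, 47 of the 52 member bins had a positive compartment component and so lay in A (90.4%, against 47.4% of all bins, 80% of bins with 1 Zfp start and 84.2% of the 4465 bins with 2 or more starts of any gene). The component is the first principal component of the cis contact pattern of each chromosome at 100 kb, positive in the gene-rich A compartment. It was scaled to an SD of 1 on each chromosome of each library, so that each chromosome has its own scale. Its median was 0.96 in the member bins, close to the 0.99 of 265 bins with 1 Zfp start, below the 1.11 of bins with 2 or more starts of any gene and unlike the −1.11 of 360 bins with 2 or more olfactory receptor (Olfr) starts, another family of tandem genes. Over all bins the median was −0.16. Member bins had a median GC content of 43.6% and 33.6% of repeats, against 41.4% and 31.2% over all bins.

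Bins with clustered Zfp genes contacted each other more often than their distance on the chromosome gave, and most so several megabases apart. Balanced contact was divided by the mean contact at the same distance on the same chromosome, so that 1 is the chromosome's own average. Over the 52 pairs of member bins 2 to 10 Mb apart (3101 read pairs) this ratio was 3.60 and 3.34 in the 3 h libraries, 3.34 and 3.47 in those of 10 h, 2.61 and 2.75 in those of imminent division and 3.06 and 3.09 in those of pre-S. Most of these read pairs came from 2 pairs of clusters on chromosome 7, Zfp524-Zfp773 with Zfp329-Zfp446 and Zfp112-Zfp94 with Zfp626-Zfp260. The value at this distance thus describes chromosome 7 more than the other chromosomes. The libraries of both 33 h groups lay below those of 3 h and 10 h, and imminent division lay below pre-S. The means were 3.47 ± 0.18 (SD, n = 2), 3.40 ± 0.091, 2.68 ± 0.097 and 3.08 ± 0.022 in that order. Bins with 1 Zfp start moved less, with means of 1.79, 1.87, 1.75 and 1.82, and Olfr bins had 1.49, 1.46, 1.58 and 1.54.

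**Figure D1:**
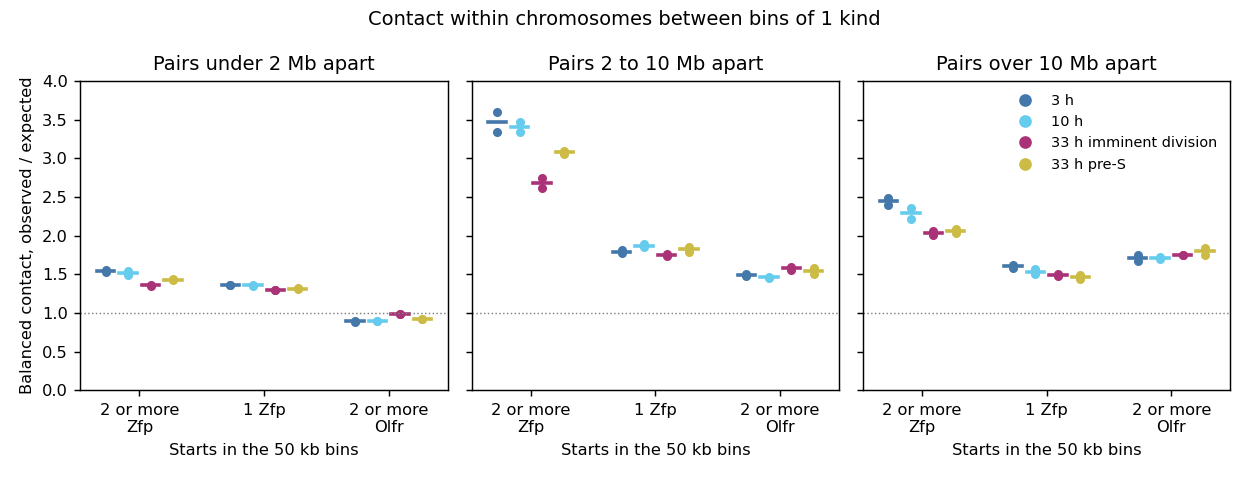
Balanced cis contact over the mean at the same distance (vertical axis, ratio) in 3 distance classes for bins with 2 or more Zfp starts, with 1 Zfp start and with 2 or more Olfr starts. Points are libraries and lines are group means, and between 2 and 10 Mb the clustered Zfp bins fell from 3.40 at 10 h to 2.68 at imminent division, while bins with 1 Zfp start stayed between 1.75 and 1.87. Most read pairs of the clustered Zfp bins at that distance came from 2 pairs of clusters on chromosome 7.

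In the other distance classes too the 33 h groups lay below 3 h and 10 h, by less. Below 2 Mb (63 pairs) the means were 1.54 ± 0.017, 1.52 ± 0.028, 1.36 ± 0.011 and 1.43 ± 0.011, and beyond 10 Mb (154 pairs, 2700 read pairs) they were 2.44 ± 0.057, 2.29 ± 0.097, 2.03 ± 0.041 and 2.06 ± 0.042, where the libraries of the 33 h groups overlapped. On raw counts the 33 h groups changed order, with imminent division at 1.51 and pre-S at 1.47 below 2 Mb and 2.45 and 2.33 beyond 10 Mb. Bins of like compartment shared part of this contact. With raw counts and the expectation taken from bin pairs of the same component classes (10 classes of equal size) at the same distance, the ratio below 2 Mb was 1.01, 1.00, 1.05 and 1.03, against 1.59, 1.58, 1.51 and 1.47 on raw counts without the classes, so that neighbours contacted each other as other bins of their compartment did. At 2 to 10 Mb it was 2.51, 2.45, 2.08 and 2.40, against 4.07, 3.96, 3.18 and 3.40, and beyond 10 Mb it was 1.96, 1.93, 1.72 and 1.82, against 2.88, 2.78, 2.45 and 2.33. As scores over the members, these ratios have no test.

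Among pairs of clusters, the strongest cis contact joined the first clusters of chromosome 7. Zfp524-Zfp773 and Zfp329-Zfp446, a median of 6.625 Mb apart, had ratios of 9.84 and 8.43 in the 3 h libraries, 9.43 and 8.99 in those of 10 h, 7.79 and 8.25 in those of imminent division and 8.58 and 8.62 in those of pre-S (1010 read pairs). Both imminent division libraries lay below all others. With raw counts and component classes in the expectation the mean over libraries was 6.56. Over longer distances, Zfp524-Zfp773 and Zfp658-Zfp719 reached a mean of 5.59 at 37.3 Mb (161 read pairs), and Zfp51-Zfp13 and Zfp119a-Zfp959 on chromosome 17 reached 5.20 at 33.9 Mb (183 read pairs).

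Some of these contacts were lower in the 33 h groups and others were not. Between Zfp112-Zfp94 and Zfp626-Zfp260, 5.65 Mb apart, the ratio was 3.13 and 2.92 in the 3 h libraries, 2.86 and 2.82 in those of 10 h, 1.77 and 1.73 in those of imminent division and 2.40 and 2.38 in those of pre-S (1081 read pairs). No 2 groups overlapped. Between Zfp329-Zfp446 and Zfp626-Zfp260, 16.975 Mb apart, the means were 3.73 ± 0.051, 3.12 ± 0.24, 1.61 ± 0.077 and 2.08 ± 0.78. By contrast, Zfp524-Zfp773 and Zfp112-Zfp94, 17.95 Mb apart, had means of 2.16 ± 0.12, 2.54 ± 0.12, 2.71 ± 0.0050 and 2.48 ± 0.39. Within the 7 bins of Zfp712-Zfp493 on chromosome 13, contact fell from 1.81 and 1.83 at 10 h to 1.43 and 1.42 at imminent division, with 1.63 and 1.62 at pre-S (18807 read pairs).

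Across chromosomes, the clusters fell into sets by their compartment component. Contact was read in 500 kb tiles, since no pair of clusters reached an expected 50 read pairs in every library with 50 kb bins (the highest reached 1.98). The expected count came from the 2 tiles' shares of their pair of chromosomes, so that 1 is no preference. After the values were seen, clusters were split at a tile component of 0.9, within the gap between 0.756 and 1.03. The component is computed from cis contacts alone, and the contacts compared here are interchromosomal. Since its scale is set for each chromosome, a value of 0.9 need not mean the same on different chromosomes. The 11 clusters above the split were Zfp663-Zfp334, Zfp316-Zfp853, Zfp786-Zfp398, Zfp626-Zfp260, Zfp553-Zfp668, Zfp963-Zfp866, Zfp882-Zfp617, Zfp26-Zfp426, Zfp251-Zfp7, Zfp811-Zfp101 and Zfp397-Zfp35.

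Clusters contacted their own set more than the other. In the 53 interchromosomal pairs within the upper set (13362 read pairs) the ratio was 2.22 and 2.41 in the 3 h libraries, 2.33 and 2.42 in those of 10 h, 2.36 and 2.28 in those of imminent division and 2.45 and 2.22 in those of pre-S. In the 69 pairs within the lower set (8227 read pairs) it was 1.71 and 1.83, 1.81 and 1.70, 1.66 and 1.72, and 1.75 and 1.70 in the same order. Between the sets (131 pairs, 11069 read pairs) it was 0.965 and 0.934, 0.994 and 0.970, 0.884 and 0.897, and 0.914 and 0.909. With the chromosome pair in the expectation, the 3 values kept this order in each library with no overlap between the classes. All 53 pairs within the upper set were above 1, as were 57 of 69 within the lower set and 48 of 131 between the sets. With component classes in the expectation the split was weaker, with 44 of 53, 53 of 69 and 62 of 131 pairs above 1.

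**Figure D2:**
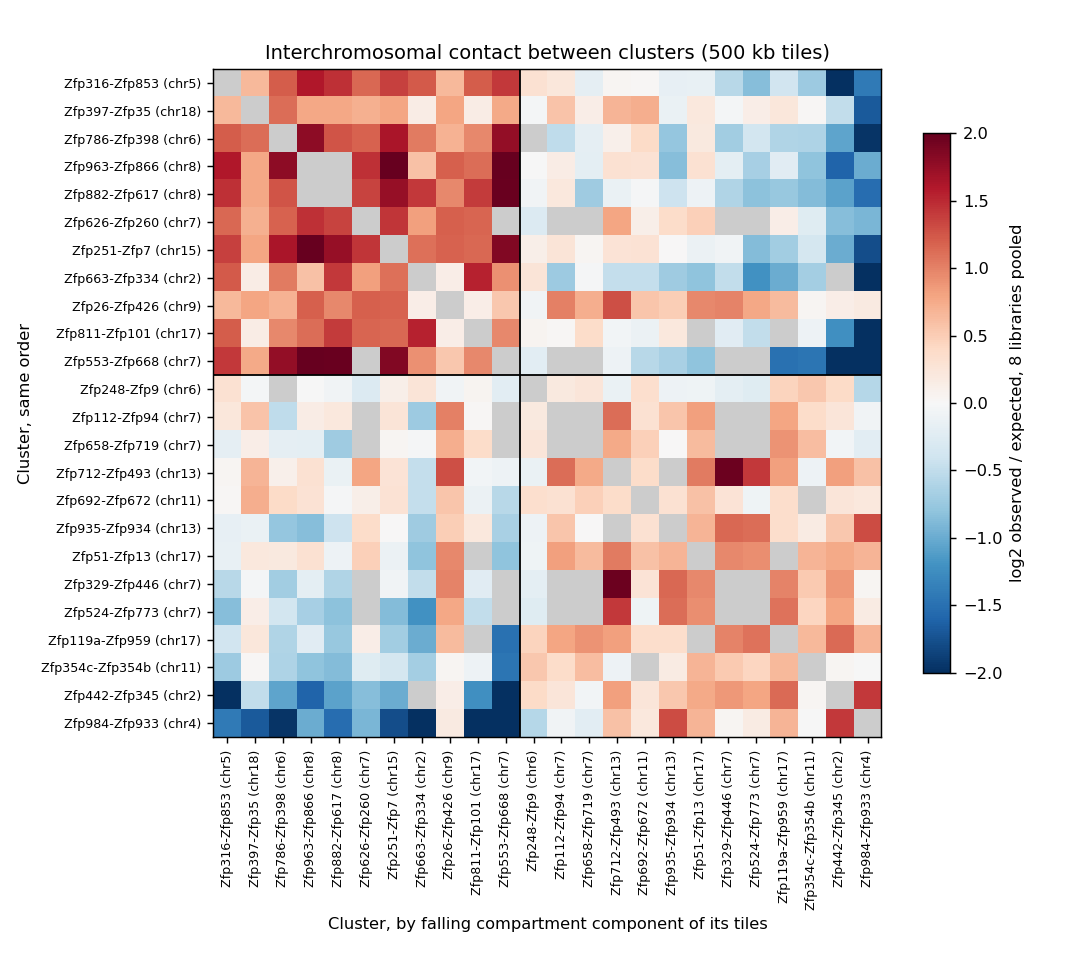
Interchromosomal contact of the 24 clusters in 500 kb tiles, as log2 of observed over expected read pairs pooled over 8 libraries, with clusters on both axes ordered by falling tile component. Lines mark the split at a component of 0.9, grey cells are pairs on the same chromosome, and the blocks on either side of the split hold ratios above 1 in 53 of 53 and 57 of 69 pairs, against 48 of 131 between them (44, 53 and 62 with component classes in the expectation, which the map does not use).

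With the chromosome pair alone in the expectation, contact within the sets varied little in time. Within the upper set the group means were 2.32 ± 0.14, 2.37 ± 0.065, 2.32 ± 0.057 and 2.34 ± 0.16, and within the lower set 1.77 ± 0.091, 1.76 ± 0.074, 1.69 ± 0.045 and 1.72 ± 0.039, all within the spread of the replicates. Between the sets both 33 h groups (0.890 ± 0.0096 and 0.911 ± 0.0028) lay below 10 h (0.982 ± 0.017) and 3 h (0.950 ± 0.022). With component classes in the expectation the libraries ranged from 1.38 to 1.54 within the upper set, from 1.45 to 1.59 within the lower set and from 1.00 to 1.141 between them. Both pre-S libraries of the upper set (1.46 and 1.38) then lay below the other 6 (1.47 to 1.54). Within each set the ratio was thus smaller but still above that of other tiles of the same component classes.

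The pair of clusters with the most contact beyond its expectation in 50 kb bins, among the 29 pairs with a summed expectation of at least 4 read pairs, was Zfp329-Zfp446 on chromosome 7 with Zfp712-Zfp493 on chromosome 13, both of the lower set. It had 43 read pairs against 7.93 expected, a ratio of 5.42 (95% exact Poisson interval 3.92 to 7.30, counting error only). In tiles the ratio was 4.17 and 3.81 in the 3 h libraries, 4.22 and 4.36 in those of 10 h, 3.37 and 4.22 in those of imminent division and 3.78 and 3.13 in those of pre-S, and the groups overlapped. The ratio was 4.26 with component classes in the expectation and 5.23 over the bin pairs that share few 50-base sequences. Next came Zfp524-Zfp773 with Zfp712-Zfp493 at 4.72 (3.64 to 6.03), Zfp329-Zfp446 with Zfp51-Zfp13 at 3.86 (2.59 to 5.55), Zfp626-Zfp260 with Zfp882-Zfp617 at 3.65 (2.09 to 5.93) and Zfp712-Zfp493 with Zfp51-Zfp13 at 3.56 (2.69 to 4.61). Of these 5 pairs, 4 joined clusters of the lower set on chromosomes 7, 13 and 17, and the 5th joined clusters of the upper set.

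Among the pairs with the least contact were pairs that crossed the split. Zfp553-Zfp668 and Zfp51-Zfp13 had 6 read pairs against 14.2 expected, a ratio of 0.422 (0.155 to 0.918), Zfp553-Zfp668 and Zfp354c-Zfp354b had 0.533 (0.110 to 1.56), and Zfp354c-Zfp354b and Zfp712-Zfp493, which lie in the same set, had 0.664 with an interval that includes 1 (0.137 to 1.94). The intervals lay above 1 for 16 of the 29 pairs and below 1 for 1 pair. Over all bins, those with the highest component had mean ratios among themselves of 1.97, 2.02, 1.90 and 2.08 across chromosomes. Those with the lowest component had 2.86, 2.76, 2.60 and 2.38, in the order 3 h, 10 h, imminent division and pre-S. The count of intervals with component classes in the expectation is not given. By this count an excess at the clusters therefore cannot be told from one of bins of like component.

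**Figure D3:**
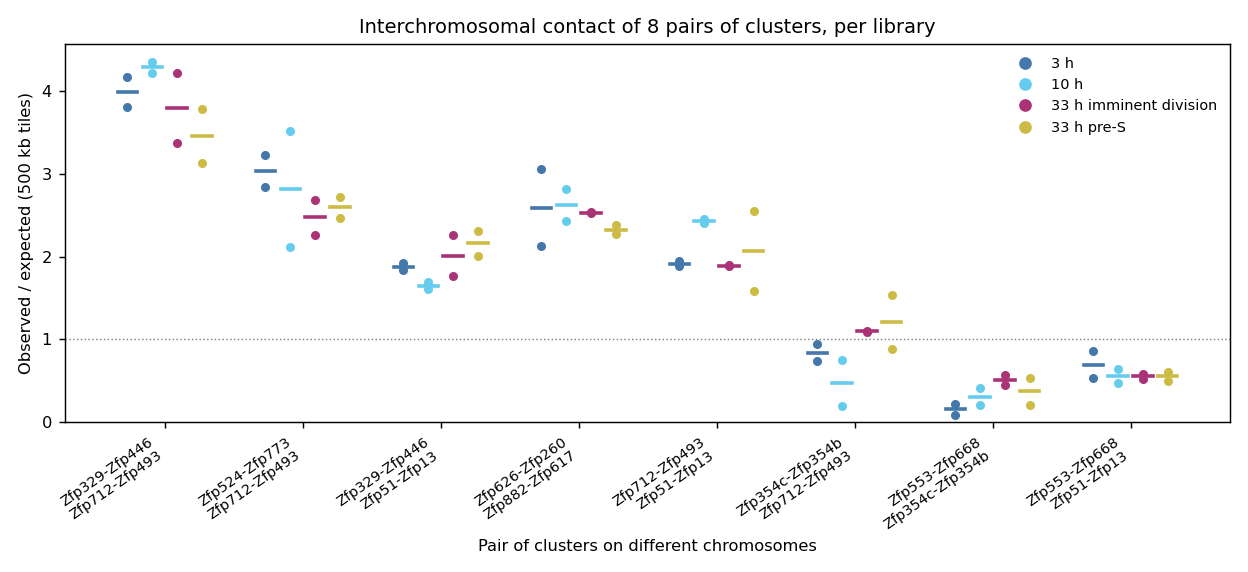
Interchromosomal contact of 8 pairs of clusters in 500 kb tiles, as observed over expected read pairs (vertical axis) in each of the 8 libraries, grouped by time. Points are libraries and short lines are group means; Zfp329-Zfp446 with Zfp712-Zfp493, on the left, lay at 3.13 to 4.36, Zfp354c-Zfp354b with Zfp712-Zfp493 lay on both sides of 1, and Zfp553-Zfp668 with Zfp51-Zfp13, on the right, lay at 0.474 to 0.856.

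Within the upper set Zfp963-Zfp866 and Zfp251-Zfp7 had a pooled ratio of 4.10 (268 read pairs), Zfp553-Zfp668 and Zfp963-Zfp866 had 3.97 (522), and Zfp553-Zfp668 and Zfp882-Zfp617 had 3.93 (529). Zfp26-Zfp426 on chromosome 9 did not keep to its set, with its highest ratio (2.46, 160 read pairs) to Zfp712-Zfp493 of the lower set and 2.30 and 2.28 to Zfp963-Zfp866 and Zfp626-Zfp260 of the upper set. Within chromosome 7 contact did not follow the split throughout. Zfp553-Zfp668, far along chromosome 7, had a cis ratio of 0.330 with Zfp524-Zfp773 (121 Mb apart, 12 read pairs), 0.575 with Zfp329-Zfp446 (11 read pairs) and 0.953 with Zfp112-Zfp94 (39 read pairs), all of the lower set, and 2.09 with Zfp626-Zfp260 of the upper set at 97.6 Mb (193 read pairs). Zfp626-Zfp260, by contrast, had the ratios above 1 given above with Zfp112-Zfp94 and Zfp329-Zfp446, both of the lower set.

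How a cluster's contact with the other clusters varied was compared with its own features, as a description over 24 clusters that share libraries. Spearman's rho of the pooled tile ratio was 0.57 with the median component, −0.31 with the median number of linkers, 0.15 with fingers, 0.17 with GC content, −0.10 with repeats and 0.13 with the number of gene starts. The tile ratio was above 1 in every library in 30 of the 34 member tiles, with a pooled median of 1.45 (0.82 to 1.83), against 1.122 in 2234 other tiles of A, of which 10% lay above 1.501, as did 15 member tiles. Among 3803 other tiles with at least 50 expected read pairs in every library, the 10 with the highest mean ratio to the member tiles at 3 h held no Zfp start, and with pooled ratios of 1.90 to 2.31 all lay above the highest member tile.

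In single 50 kb bins the interchromosomal counts were low, between 71 and 244 read pairs a library over all 1057 pairs of member bins. The ratio was 2.27 and 2.09 in the 3 h libraries, 2.54 and 2.04 in those of 10 h, 1.80 and 2.05 in those of imminent division and 1.69 and 1.49 in those of pre-S, and both pre-S libraries lay lowest. It was 1.45, 1.496, 1.35 and 1.41 on the group means for bins with 1 Zfp start and 1.44, 1.47, 1.49 and 1.45 for Olfr bins. Around the members the ratio declined with distance along the chromosome, to group means of 1.79, 1.75, 1.60 and 1.51 for bins 1 or 2 bins from a member, 1.39, 1.497, 1.39 and 1.40 at 3 to 10 bins, and 1.16, 1.19, 1.145 and 1.19 at 20 to 40 bins.

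On group means, the ratio at pre-S was lower in the pairs of member bins that shared more sequence. Pairs of member bins on different chromosomes shared a median of 21 sequences of 50 bases (763 at most, none in 131 pairs). In pairs above that median the group means were 2.25, 2.41, 1.80 and 1.28, and in the other pairs 2.11, 2.17, 2.05 and 1.92. In the 131 pairs that share none they were 2.76, 2.74, 2.33 and 2.09, with 7 to 35 read pairs a library, and the pre-S libraries were far apart at 1.07 and 3.12. The ratio was thus as large without shared sequence at 3 h and 10 h. The sets on either side of the median each hold only part of the low counts given above. Their single library values are not given, and the size of their difference at pre-S is therefore uncertain. The part of read placement in the lower pre-S value was not tested.

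Tests across the genome found no change in interchromosomal contact at the members. Of 4759 tiles tested for contact with the member tiles (edgeR quasi-likelihood test, Benjamini-Hochberg FDR of 0.05), 0% passed at 10 h over 3 h, 0.063% at imminent division over 10 h, 0.042% at pre-S over 10 h and 0% at imminent division over pre-S. None was among the 34 member tiles, and DESeq2 called none of these. At an unadjusted p under 0.05 there were 2, 6, 6 and 2 member tiles, against 251, 447, 366 and 266 of all 4759 tiles. In 50 kb bins 165 bins reached a mean of 10 read pairs and none was a member, so that changes of single member bins were not detectable at this depth.

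Contacts within chromosomes were then tested as differential interactions (DIs), over 1458223 pairs of 50 kb bins. Of 269 pairs of member bins on the same chromosome, 91 were abundant enough to test, 69 of them within a cluster. At 10 h over 3 h none of the 91 was a DI by edgeR, against 0.000617% of all pairs. There 3 had an unadjusted p under 0.05, against 86506 of all 1458223 pairs. At imminent division over 10 h 3 of 91 weakened, against 1.39% of all pairs, and none strengthened, against 0.645%. The median log2 change of the 91 was −0.13, against 0.02 over all pairs. It was −0.14 over pairs with both bins in A and −0.22 over pairs with 2 or more starts of any gene in both bins. At pre-S over 10 h none was called (0.349% of all pairs were higher and 0.249% lower). There 16 of the 91 had an unadjusted p under 0.05, against 166960 of all 1458223 pairs. Their median was −0.17, against −0.16 and −0.20 over the same classes of pairs. Between imminent division and pre-S none was called either (0.136% higher and 0.236% lower). There 10 had an unadjusted p under 0.05, against 144428 of all 1458223 pairs. DESeq2, run as an alternative, called none of the 91 pairs in any contrast, and 41 of all pairs at imminent division over 10 h.

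The 3 weakened pairs lay within clusters on chromosomes 7, 13 and 11. The bin of Zfp524, Zfp865 and Zfp784 and that of Zfp787 and Zfp444, 1150 kb apart on chromosome 7, had log2 levels at a common depth of 6.05 and 5.61 in the 3 h libraries, 5.39 and 5.96 in those of 10 h, 4.94 and 4.73 in those of imminent division and 5.72 and 5.64 in those of pre-S. Both imminent division libraries lay below all others, and the change from 10 h was −0.90 (SE 0.22, FDR 0.0085 by edgeR with Benjamini-Hochberg adjustment). Zfp712/Zfp708 and Zfp729b/Zfp729a, 550 kb apart on chromosome 13, had 5.62 and 5.85 in the 10 h libraries, 5.08 and 4.92 in those of imminent division and 5.69 and 5.75 in those of pre-S, a change of −0.75 (SE 0.21, FDR 0.032). Zfp354c/Zfp879 and Zfp2/Zfp354b, 100 kb apart on chromosome 11, had 7.87 and 7.94 in the 10 h libraries, 7.53 and 7.35 in those of imminent division and 7.50 and 7.49 in those of pre-S, a change of −0.47 (SE 0.11, FDR 0.0034). Without the second 10 h or the second imminent division library no member pair passed. Without the first 10 h or the first imminent division library 2 did.

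**Figure D4:**
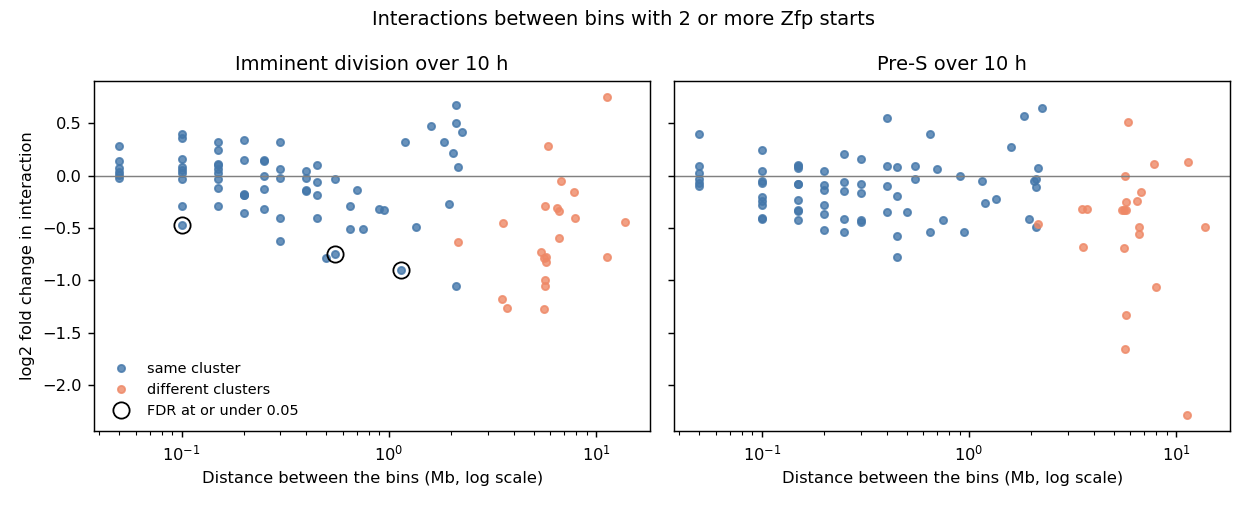
Log2 change of the 91 tested pairs of clustered Zfp bins (vertical axis) against their distance in Mb (log axis) for imminent division over 10 h and pre-S over 10 h. Rings mark pairs past an FDR of 0.05, which were 3 pairs at imminent division, all lower, and none at pre-S, and the medians were −0.13 and −0.17.

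Bin pairs with at least 1 end at a member, which include the 91 above, gave the same direction in larger numbers. Of 3341 tested pairs with at least 1 member bin, 135 weakened and 11 strengthened at imminent division over 10 h. The weakened share was 4.04%, against 1.39% of all pairs, 2.86% of pairs with both bins in A, 3.09% of pairs with a bin of 1 Zfp start and 5.46% of pairs in which both bins held 2 or more starts of any gene. By distance, 91 of 1143 pairs 0.5 to 1.5 Mb apart weakened (7.96%, against 2.11% of all pairs at that distance). The shares of pairs in A or of gene-rich pairs at that distance are not given. The excess therefore cannot be told from one of gene-rich pairs in A. DESeq2 called none of the 3341. In edgeR, leaving out the second 10 h library gave 17 in place of 135, leaving out the first gave 30, and leaving out the imminent division libraries gave 37 and 51. In the other contrasts members were not called more often than all pairs, with 1 strengthened and 6 weakened at pre-S over 10 h (0.180% weakened, against 0.249%) and 1 and 5 at imminent division over pre-S (0.150%, against 0.236%).

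The 5 largest falls whose libraries did not overlap joined Zfp arrays to bins 1100 to 7450 kb away. Between Zfp26/Zfp426 and Dock6, 1400 kb apart on chromosome 9, the log2 level fell from 3.88 and 3.58 at 10 h to 1.48 and 0.95 at imminent division, with 2.60 and 3.25 at pre-S (−2.56, SE 0.56, FDR 0.0028). Both Zfp74/Zfp568 and Zfp940/Zfp420, of the cluster Zfp626-Zfp260, lost contact with the bin of Fxyd7, Fxyd1, Lgi4 and Fxyd3 (−2.44 and −2.23, FDR 7.7e-04 and 5.0e-04). Srrm3 and Zfp316/Zfp853 on chromosome 5, 7450 kb apart, changed by −2.33 (FDR 0.013), and Zfp112/Zfp235 and a bin without a gene start, 3500 kb apart, by −2.20 (FDR 0.026). Of those that strengthened, the imprinted genes Peg3 and Usp29 with Zfp954/Zfp773, 400 kb apart, rose from 1.65 and 3.17 at 10 h to 4.15 and 4.18 at imminent division, with 4.21 and 4.59 in the pre-S libraries (1.56, FDR 0.026, and 1.77, FDR 0.038), but had stood at 4.13 and 3.63 at 3 h. In the same contrast the vomeronasal receptor gene Vmn1r174 and Zfp61/Zfp94 rose by 2.35 (FDR 0.018), with 3.60 and 1.68 in the 3 h libraries, 2.52 and −1.06 in those of 10 h and 3.60 and 3.57 in those of imminent division. The second 10 h library lay far below all others. Levels are log2 of the count plus 0.5 at a common depth. The levels of 1.48 and 0.95 thus stand for few read pairs, and that of −1.06 for none. Ranking by the size of the log2 change favours such pairs.

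Summed over a promoter's contacts, Zfp712-Zfp493 on chromosome 13 and Zfp524-Zfp773 on chromosome 7 moved in opposite directions. Promoter interactivity is the summed cis count of a bin with a gene start over the bin pairs above a distance curve, and 51 member bins had the 200 read pairs needed. From 10 h to imminent division 13 member bins rose and 15 fell, against 25.1% and 24.5% of 13108 bins, so that the count is close to the background in both directions. All 7 bins of Zfp712-Zfp493 rose (log2 changes of 0.14 to 0.29) as did its neighbour Zfp935-Zfp934 (0.19). All 4 bins of Zfp524-Zfp773 fell (−0.30 to −0.20), and so did 3 of 4 in Zfp112-Zfp94, both in Zfp354c-Zfp354b and 2 of 6 in Zfp626-Zfp260. On chromosome 7 none of the 3 bins of Zfp553-Zfp668 or the 2 of Zfp329-Zfp446 passed. Bins of a cluster share neighbours and are not independent.

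Levels are log2 counts at a common depth. On chromosome 13, Zfp874a/Zfp874b stood at 10.07 and 10.25 in the 3 h libraries, 10.07 and 10.12 in those of 10 h, 10.36 and 10.41 in those of imminent division and 10.19 and 10.11 in those of pre-S. Both imminent division libraries lay above all others (0.29 over 10 h, SE 0.049, FDR 6.2e-06, edgeR). The neighbouring Zfp58/Zfp87 had 10.52 and 10.59 at 10 h and 10.89 and 10.76 at imminent division (0.26, FDR 1.7e-05). On chromosome 2, Zfp442/Zfp345, a bin of the B compartment, rose most, from 8.51 and 8.61 to 8.91 and 8.95 (0.37, SE 0.072, FDR 5.1e-05).

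On chromosome 7, Zfp78/Zfp28 stood at 10.62 and 10.67 in the 3 h libraries, 10.65 and 10.70 in those of 10 h, 10.40 and 10.36 in those of imminent division and 10.59 and 10.56 in those of pre-S (−0.30, SE 0.043, FDR 4.5e-07). Zfp787/Zfp444 fell by 0.23 on the log2 scale (FDR 8.2e-05) and Zfp112/Zfp235 fell by 0.22 (FDR 8.2e-05). Both groups at 33 h lay below 10 h in Zfp112/Zfp235, with 10.82 and 10.69 in the 10 h libraries, 10.52 and 10.54 in those of imminent division and 10.54 and 10.57 in those of pre-S.

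**Figure D5:**
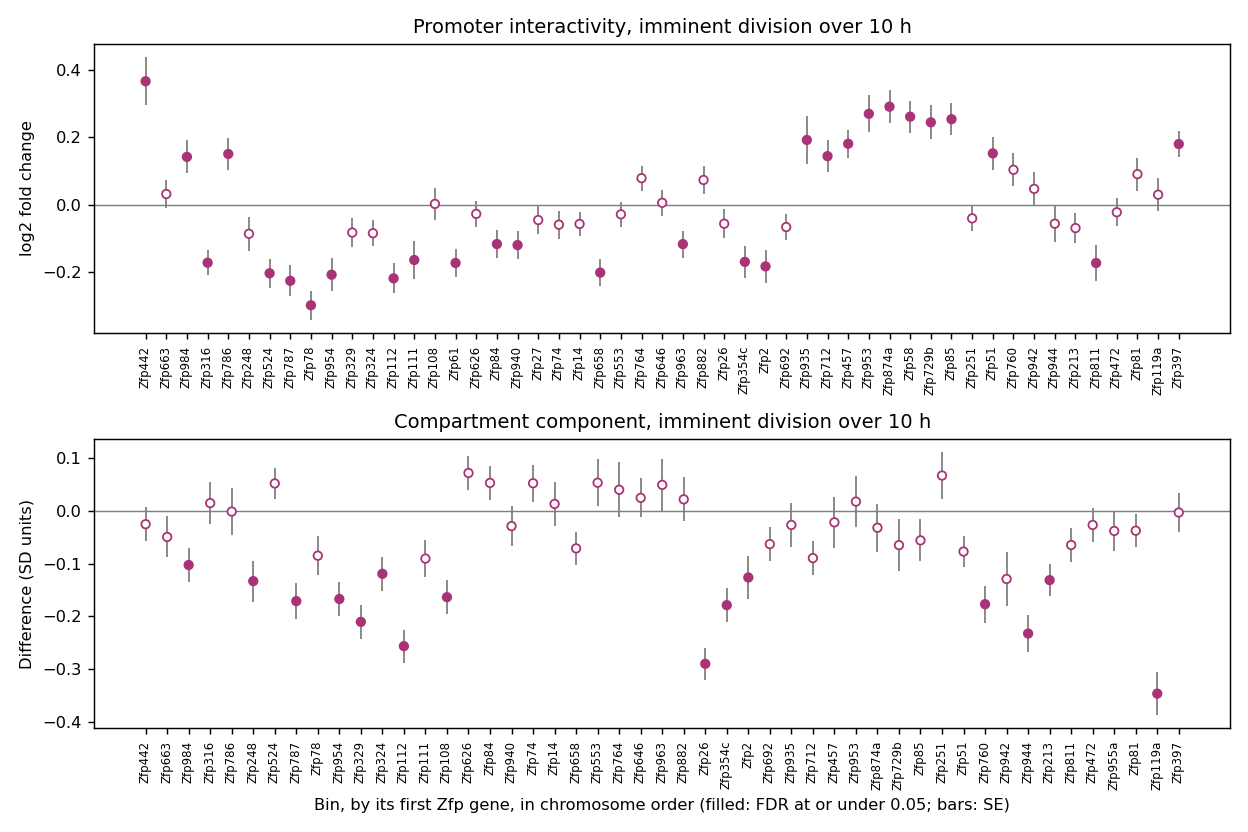
Change from 10 h to imminent division in promoter interactivity (log2) and in the compartment component (SD units) for each member bin tested, in chromosome order, with standard errors; filled points passed an FDR of 0.05. The 7 bins of Zfp712-Zfp493 on chromosome 13 all lie above 0 in interactivity, the 4 bins of Zfp524-Zfp773 on chromosome 7 all lie below 0, and the 15 filled points of the component are all lower.

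At 10 h over 3 h no member bin changed in interactivity by edgeR (0.465% of all bins rose and 0.107% fell). Of the 51 member bins 5 had an unadjusted p under 0.05, against 1698 of all 13108 bins. DESeq2 called none either. At pre-S over 10 h 1 member bin rose and 11 fell, against 16.7% and 15.8% of all bins, but 7 rose and 15 fell with all cis pairs and 6 rose and 17 fell with TMM factors. The 12 calls became 6 by DESeq2, and leaving out replicate 1 of 10 h or of pre-S gave 4 and 5. The 1 that rose was Zfp85/Zfp493 (0.18, FDR 0.0062), and among those that fell were 3 of the 4 bins of Zfp112-Zfp94 (Zfp111/Zfp109 by 0.32, Zfp112/Zfp235 by 0.20 and Zfp61/Zfp94 by 0.19 on the log2 scale). With all cis pairs summed in place of those above the curve, Zfp111/Zfp109 turned to 0.0025. Between pre-S and imminent division 9 rose and 2 fell, against 10.6% and 11.9%, and these 11 calls became 5 by DESeq2, 7 when replicate 1 of 10 h was left out and 4 when replicate 2 of pre-S was. Of the 9, 5 were bins of Zfp712-Zfp493, and the 2 that fell were Zfp787/Zfp444 and Zfp78/Zfp28 of Zfp524-Zfp773.

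The compartment component of member bins that changed from 10 h was lower in both 33 h groups, though at pre-S this depended on the scaling. Of 49 bins of 100 kb that held members, 15 were lower and none higher at imminent division over 10 h, against 14.1% lower and 8.8% higher among 23795 bins. At pre-S over 10 h 19 were lower and none higher, against 21.7% and 2.99%. In that contrast 4 were higher and 27 lower without either 3 h library, and 4 and 25 in 250 kb bins. The median difference of the members was −0.06 and −0.08 in these contrasts, against −0.0024 and −0.05 over all bins. With quantile scaling of the component, pre-S over 10 h gave 5 higher and 8 lower member bins in place of none and 19, and imminent division over pre-S gave 1 higher and 7 lower in place of 4 and 2. At 10 h over 3 h Zfp51/Zfp53 was lower (−0.14, FDR 0.024, limma) and no other member passed, against 2.12% lower and 1.27% higher, but none passed without either 10 h library and 9 were lower without the second 3 h library. Imminent division over pre-S had 4 higher and 2 lower, against 15.2% and 2.66%, and the count of 6 went to 1 without the second imminent division library.

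Most of the falls at imminent division lay in clusters below the split. At imminent division 2 of 2 bins of Zfp329-Zfp446, 2 of 2 of Zfp354c-Zfp354b, 2 of 3 of Zfp112-Zfp94, 3 of 5 of Zfp51-Zfp13 and 2 of 4 of Zfp524-Zfp773 were lower, with the single bins of Zfp119a-Zfp959, Zfp248-Zfp9 and Zfp984-Zfp933, and none of the 5 bins of Zfp626-Zfp260, the 3 of Zfp553-Zfp668 or the 4 of Zfp811-Zfp101. Zfp26-Zfp426 was the only cluster above the split with a lower bin, and none of the 6 bins of Zfp712-Zfp493, below the split, was lower. At pre-S over 10 h, 2 of 4 bins of Zfp811-Zfp101, above the split, and 1 of 6 of Zfp712-Zfp493 were lower too. By the bin's own mean component, 5 of 27 member bins at 0.9 or more were lower, against 7.53% of all such bins, 7 of 17 between 0 and 0.9, against 34.5%, and 3 of 5 below 0, against 10.6%. The counts at pre-S over 10 h were 6 of 27, against 13.05%, 8 of 17, against 51.2%, and 5 of 5, against 16.1%.

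Zfp119a/Zfp959 on chromosome 17 moved most, with a component of 0.95 and 0.87 in the 3 h libraries, 0.89 and 0.90 in those of 10 h, 0.52 and 0.57 in those of imminent division and 0.71 and 0.59 in those of pre-S (imminent division over 10 h −0.35, SE 0.040, FDR 6.7e-05, limma). Zfp26/Zfp426 had 1.13 and 1.13 in the 10 h libraries, 0.84 and 0.85 in those of imminent division and 0.91 and 0.88 in those of pre-S (−0.29, FDR 3.6e-05). In both bins the 4 libraries at 33 h lay below the 4 earlier ones. Zfp944/Zfp758 on chromosome 17 changed sign, from 0.12 and 0.10 at 10 h to −0.16 and −0.08 at imminent division, with −0.11 and −0.16 in the pre-S libraries (−0.23, FDR 3.8e-04, and −0.25, FDR 3.0e-04). Zfp935/Zfp934 on chromosome 13 fell at pre-S, to 0.0071 and 0.096 from 0.27 and 0.33 at 10 h, and stood at 0.24 and 0.30 at imminent division (−0.25, FDR 9.7e-04), and differed between the 33 h groups (0.22, FDR 0.0031).

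Insulation was read as log2 of the mean count across a bin over the mean count within its flanks of 10 bins, so that lower means more insulated. The counts were not corrected for distance. A change in how contact falls with distance therefore cannot be told apart from a change in insulation. At imminent division over 10 h the ratio rose over most of the genome, with a median change of 0.23. Of 46768 bins 70% were higher and 5.81% lower. The 52 member bins moved less, with a median of 0.05, 20 higher and 7 lower (38.5% and 13.5%), much as other gene-rich bins did. Bins with 2 or more starts of any gene had a median of 0.05, with 38.4% higher and 19.6% lower, and all bins in A had 0.08, with 43.2% higher and 12.1% lower. At 10 h over 3 h 17 member bins were higher and 1 lower (15.8% and 1.1% of all bins), while 27.7% of bins with 2 or more starts of any gene and 23.3% of bins in A were higher. Leaving out replicate 2 of 10 h took the 18 calls to 6, and leaving out replicate 2 of 3 h took them to 7. At pre-S over 10 h 9 were higher and 6 lower (23.3% and 4.43%), and at imminent division over pre-S 13 were higher and 3 lower (60.9% and 2.84%). The split at imminent division over 10 h changed with the window, with 8 higher and 18 lower for flanks of 20 bins and 27 and 2 for flanks of 5. The shares over all bins at these windows are not given. A turn at the members therefore cannot be told from one over all bins. With flanks of 5 bins none of the 18 calls at 10 h over 3 h was left, and 3 of the members were called at pre-S over 10 h. Between the 33 h groups flanks of 20 bins gave 4 higher and 15 lower.

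Against this background, the insulation ratio rose most among the members in Zfp112/Zfp235, from −2.84 and −2.77 at 10 h to −2.24 and −2.27 at imminent division, with −2.53 and −2.42 in the pre-S libraries (0.55, SE 0.048, FDR 1.1e-07, limma). The neighbouring Zfp111/Zfp109 changed by 0.40 and Zfp108/Zfp93 by 0.27 (FDR 3.7e-06 and 6.5e-04). Zfp786/Zfp398 on chromosome 6 went the other way at each step, from −2.61 and −2.68 at 3 h to −2.90 and −2.80 in the 10 h libraries, −3.44 and −3.47 in those of imminent division and −3.30 and −3.38 in those of pre-S. Its changes were −0.21 at 10 h over 3 h (FDR 0.010), −0.61 at imminent division over 10 h (FDR 7.1e-08) and −0.49 at pre-S over 10 h (FDR 1.4e-05).

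The bins of genes that act with KRAB zinc finger proteins, or on the mark they recruit, were read in the same fits. Of 27 listed genes 25 were autosomal. At imminent division over 10 h promoter interactivity was higher for 3 and lower for 5 of them, at pre-S over 10 h for 3 and 4, at imminent division over pre-S for 1 and 3, and for none at 10 h over 3 h. Over all bins 25.1% were higher and 24.5% lower at imminent division over 10 h, 16.7% and 15.8% at pre-S over 10 h, and 10.6% and 11.9% at imminent division over pre-S, so that these counts are near or below the background. Those that rose at imminent division were Suv39h2, an H3K9 methyltransferase (0.16, FDR 0.0014), Cbx1, an HP1 protein (0.10, FDR 0.039), and Fam208a, of the HUSH silencing complex (0.09, FDR 0.0499). Those that fell included Kdm4a, an H3K9 demethylase (−0.31), and Ehmt2, an H3K9 methyltransferase (−0.16, FDR 0.0031). The component was lower for 5 and higher for 1 at imminent division over 10 h, against 14.1% and 8.8% of all bins. The lower bins were those of Smarcad1 (−0.28), Hdac2 (−0.27), Kdm4c (−0.25), Suv39h2 (−0.22) and Trim28 (−0.12, FDR 0.016), and the Trim28 value is that of the bin it shares with Zfp324 and Zfp446. The higher bin was that of Morc2a (0.18, FDR 0.0056). At 10 h over 3 h none was higher and 2 were lower, Pphln1 (−0.16) and Suv39h2 (−0.14), against 1.27% and 2.12% of all bins. At pre-S over 10 h none was higher and 5 were lower, against 2.99% and 21.7%. Trim28 was not among them (−0.03, FDR 0.48, limma). At imminent division over pre-S 2 were higher and 1 lower, against 15.2% and 2.66%.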

How the data were processed

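The authors aligned the Hi-C reads to mm10 with diffHic (cutadapt and bowtie2), marked duplicates with Picard, removed dangling ends and deposited 1 matrix of raw read pair counts per library over 50 kb bins rounded to MboI sites. Bin coordinates were rebuilt from MboI fragments of GRCm38, giving 53357 bins as in the matrices. Of 48088 autosomal bins, 748 with over 10% undetermined bases or coverage beyond 4-fold of the median were left out. Libraries held 88703088 to 218945191 pairs, and intervals cover counting error only.

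Differential interactions and promoter interactivity were tested with edgeR 4.0.16 (quasi-likelihood, loess offsets split at 1.5 Mb, pairs at 4-fold background, at least 200 counts for interactivity) over all 8 libraries, component (100 kb) and insulation (10 bins) with limma 3.58.1, all at a Benjamini-Hochberg FDR of 0.05 over the whole table, and DESeq2 1.42.0 as an alternative. Fits were tested on simulated data.

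The members, the gene lists and the tests were chosen with earlier results of these data known. Named were clusters of 3 bins or 8 genes and, per test and direction, up to 5 changes with the largest size whose libraries did not overlap, and for interchromosomal cluster pairs the 5 highest and 3 lowest. That rule asked for an expected count of 50 per library, which no pair reached, so a summed expectation of 4 was used. Tiles of 500 kb, component classes, pairs sharing no 50-base sequence, flanking bins and the split at 0.9 were added after seeing the data. Other cluster pairs, cofactor genes and interactivity or insulation values given beside these were chosen after their values were seen. No column was left unmapped. A further marker of the sort is not reported here.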

Additional observations from a re-analysis of the deposited data

How the results depend on the processing

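The counts of interactions moved with the tool, the bin size, the offsets, the filter and the libraries. At imminent division over 10 h the 3 member pairs became 14 in 100 kb bins (1 higher and 13 lower), 7 with bin coverage in the offsets, 6 with TMM factors and 0 with DESeq2, and the 146 pairs with a member end became 390 in 100 kb bins, 55 with a filter at 2-fold the background and 0 with DESeq2. At pre-S over 10 h the member pairs went from 0 to 3 in 100 kb bins and 2 with TMM factors, and the 7 pairs with a member end to 75 in 100 kb bins, 21 with TMM factors, 1 with the 2-fold filter and 0 with DESeq2. At imminent division over pre-S the member pairs went from 0 to 3 in 100 kb bins and 4 with coverage offsets, and the 6 with a member end to 42, 46, 13 with TMM factors, 2 with the 2-fold filter and 0 with DESeq2. The causes were not tested. Member counts under an alternative, here and above, are mostly given without the share over all features under it. A shift over all features therefore cannot be told from one at the members.

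Member bins with changed interactivity numbered 18 by DESeq2 in place of 28 at imminent division over 10 h, 6 by DESeq2, 22 over all cis pairs and 23 with TMM factors in place of 12 at pre-S over 10 h, and 5 by DESeq2 in place of 11 at imminent division over pre-S. Component calls in 250 kb bins were 3 in place of 1 at 10 h over 3 h and 29 in place of 19 at pre-S over 10 h. Insulation calls with flanks of 5 bins were 0 in place of 18 at 10 h over 3 h, 3 in place of 15 at pre-S over 10 h and 27 in place of 16 at imminent division over pre-S. Of 99 single changes named, 35 kept direction and call under all alternatives, and 5 turned: Zfp111/Zfp109 interactivity at pre-S (0.0025 over all cis pairs) and, with flanks of 5 bins, insulation of Zfp553/Zfp771 (0.042) and Zfp692/Zfp672 (0.16) at imminent division over 10 h and of Zfp882/Zfp617 (0.0079) and Zfp658/Zfp719 (0.034) at imminent division over pre-S.

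The interchromosomal ratio among member bins at 3 h, 10 h, imminent division and pre-S was 2.68, 2.83, 2.31 and 1.93 with a genome-wide expectation, 1.81, 1.87, 1.60 and 1.27 by component classes, and 2.76, 2.74, 2.33 and 2.09 over pairs that share no 50-base sequence. At pre-S it was 1.92 over pairs that share few. The cis ratio on raw counts was 1.59, 1.58, 1.51 and 1.47 under 2 Mb, 4.07, 3.96, 3.18 and 3.40 at 2 to 10 Mb and 2.88, 2.78, 2.45 and 2.33 over 10 Mb, and on raw counts by component classes 1.01, 1.00, 1.05 and 1.03, then 2.51, 2.45, 2.08 and 2.40, then 1.96, 1.93, 1.72 and 1.82.

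Leaving out each library gave 0 to 3 member pairs and 19 to 169 pairs with a member end at imminent division over 10 h (0 without replicate 2 of 10 h or of imminent division; 31, 19, 42 and 54 without the first and second 10 h and imminent division libraries). It gave 0 to 10 pairs with a member end at pre-S over 10 h (0 without the first 10 h or first pre-S library, 1 without the second of either) and, at imminent division over pre-S, 0 to 1 member pairs (1 without either 3 h library) and 0 to 10 with a member end (10 without 3 h replicate 2, 1 without the second imminent division or first pre-S library, 0 without the second pre-S library). Interactivity ranged from 19 to 29 at imminent division over 10 h, 4 to 15 at pre-S over 10 h (4 without the first 10 h, 5 without the first pre-S library) and 4 to 11 at imminent division over pre-S (7 without the first 10 h, 4 without the second pre-S library). The component ranged from 0 to 9 at 10 h over 3 h (0 without either 10 h, 9 without 3 h replicate 2), 11 to 18 at imminent division over 10 h, 13 to 31 at pre-S over 10 h (31 without either 3 h library) and 1 to 11 at imminent division over pre-S (11 without either 3 h, 3 without either 10 h or the first imminent division, 1 without the second imminent division, 2 without either pre-S library). Insulation ranged from 6 to 18 at 10 h over 3 h (6 without 10 h replicate 2, 7 without 3 h replicate 2), 23 to 28 at imminent division over 10 h, 6 to 17 at pre-S over 10 h (8 without the first 10 h, 9 and 6 without the first and second pre-S library) and 10 to 19 at imminent division over pre-S (10 without the first imminent division library).

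Libraries with the same replicate number deviated together little (correlations of −0.215 to 0.220), and the main fits used no replicate block. With 2 libraries a group this cannot exclude mice or batches shared by libraries of the same number. With the replicate block the counts stayed within 1.5 times, for example 131 in place of 146 pairs with a member end at imminent division over 10 h, except for 3 in place of 7 at pre-S over 10 h.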
